A study of Mus musculus with 3 samples.

Results

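Afp, Alb, Ttr, Apoa1, Apoa2 and Ahsg encode proteins that the liver secretes into blood plasma, and they were followed here through 3 RNA sequencing libraries of mouse whole lung. The 6 genes were chosen by name and found by matching RefSeq transcript identifiers to gene symbols. All 6 had at least 1 entry, giving 8 of the 16383 transcripts listed and 6 of 10761 named genes. Of the libraries, 2 came from lungs labelled as double knockouts of Lin28a and Lin28b (DKO 1 and DKO 2), and 1 came from a lung labelled wild type (WT). In the knockout design, tamoxifen activates a CreERT recombinase driven from Nkx2-1, a lung epithelial gene. The recombinase is meant to remove the loxP-flanked exon 2 of both genes, and loss of the exon was not examined here. All 3 lungs were of a C57BL/6J/mixed background. The treatment text stands with every library, and whether the WT carried loxP sites or the recombinase is not stated. Age and sex are not labelled, nor is it stated whether DKO 1 and DKO 2 are different animals, and p-values therefore measure a spread that can be technical. The study's title asks what Lin28a and Lin28b, RNA-binding proteins, do in lung branching and epithelial differentiation. Values are RPKM, read numbers scaled to transcript length and to library size, as the authors deposited them. Implied depths were about 30700000 reads in DKO 1, 34200000 in DKO 2 and 48700000 in WT. The DKO 2 library stood apart from the other 2 in some liver, red blood cell and heart genes, so each library's values are given singly.

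As background, hepatocytes make most of the soluble protein of plasma. Albumin (Alb) is the main plasma carrier of the adult, and alpha-fetoprotein (Afp) is its relative in the fetus, made by the yolk sac and the fetal liver. Transthyretin (Ttr) carries thyroxine and retinol-binding protein and is also made by the yolk sac and the choroid plexus. Apolipoproteins A-I (Apoa1) and A-II (Apoa2) are the main proteins of high-density lipoprotein, and the intestine makes Apoa1 as well. Fetuin-A (Ahsg) is a fetal plasma protein that keeps calcium phosphate in solution. None of the 6 is a usual marker of lung epithelium or mesenchyme, although the lung bud and the liver bud both arise from foregut endoderm.

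Alb and Afp are neighbours on chromosome 5, with 14.1 kb between the end of Alb (90460870 to 90476602) and the start of Afp (90490714 to 90508907). Apoa1 lies on chromosome 9 (46228630 to 46230469), 10.4 kb before Apoa4, with Apoc3 between them. Apoa2 lies on chromosome 1 (171221564 to 171226379), and Ahsg on chromosome 16 (22892015 to 22899451). Coordinates are those of RefSeq genes on GRCm38.p6 (mm10). The annotated span of Apoa2 overlaps Tomm40l, which had 4.16 RPKM in DKO 1, 4.45 in DKO 2 and 5.25 in WT. The spans of Ttr and Ahsg each overlap 1 predicted gene. Whether reads were assigned by strand is not given in the sources used here, so reads of overlapping genes are uncertain.

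The start sites of 4 of the genes whose values follow are shown because these genes are known targets of liver-enriched transcription factors. Each line holds the 250 bases before an annotated start, plus strand, from RefSeq on GRCm38.p6. For Apoa2 this is the start of the listed transcript, at 171225054 in GENCODE, which lies inside the RefSeq span of the gene. The windows are chr5:90490464-90490713 for Afp, chr5:90460620-90460869 for Alb, chr9:46228380-46228629 for Apoa1 and chr1:171224804-171225053 for Apoa2. Capitals mark matches on either strand to GTTAAT, a short motif of liver promoters, and to TGTTTNC, a core of the forkhead (FOXA) factors.
Afp: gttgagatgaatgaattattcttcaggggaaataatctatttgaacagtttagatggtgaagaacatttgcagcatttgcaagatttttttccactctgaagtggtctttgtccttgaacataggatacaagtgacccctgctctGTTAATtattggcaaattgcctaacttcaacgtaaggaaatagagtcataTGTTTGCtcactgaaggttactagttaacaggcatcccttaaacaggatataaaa
Alb: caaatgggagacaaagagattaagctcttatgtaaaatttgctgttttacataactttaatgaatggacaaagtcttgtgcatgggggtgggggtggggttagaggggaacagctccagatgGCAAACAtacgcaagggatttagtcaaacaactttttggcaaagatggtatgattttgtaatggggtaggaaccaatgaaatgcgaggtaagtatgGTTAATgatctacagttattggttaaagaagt
Apoa1: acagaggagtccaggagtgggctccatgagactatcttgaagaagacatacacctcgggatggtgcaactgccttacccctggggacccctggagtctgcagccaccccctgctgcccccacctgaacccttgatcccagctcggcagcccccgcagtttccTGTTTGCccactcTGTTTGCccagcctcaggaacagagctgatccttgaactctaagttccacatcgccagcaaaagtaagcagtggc
Apoa2: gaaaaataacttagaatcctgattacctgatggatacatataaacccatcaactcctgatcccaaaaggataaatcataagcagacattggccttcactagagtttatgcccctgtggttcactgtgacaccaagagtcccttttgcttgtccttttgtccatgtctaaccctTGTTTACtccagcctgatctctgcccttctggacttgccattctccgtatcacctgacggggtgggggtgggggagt

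GTTAAT matched once in the Afp window and once in the Alb window, and did not occur in the Apoa1 and Apoa2 windows. Among 32851 promoter windows of this length, 6.43% held it on either strand. TGTTTNC matched at 2 places in Apoa1 and at 1 in each of the other 3 windows, against 17.8% of all windows with at least 1 match. The letters TATAAA, at any place and on either strand, were present in the Afp and Apoa2 windows and in 12.4% of all windows. In Apoa2 they lay near the end of the window far from the start. The capitals of the 2 motifs do not overlap in these windows. A match describes letters only, and binding was not measured here.

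Afp and Alb, carriers of the albumin family, were high in the DKO 2 library and low in the other 2. Afp had 0.891 RPKM in DKO 1 and 69.96 RPKM in DKO 2, against 1.95 RPKM in WT. These values stand for about 56, 4936 and 196 reads in the same libraries. DKO 2 was high, and WT lay between the 2 DKO libraries, so the groups overlap. The RPKM of DKO 2 was 78.5 times that of DKO 1 (95% exact binomial interval on approximate reads 60.8 to 105) and 35.9 times that of WT (31.1 to 41.5). Afp in DKO 1 was 0.457 times WT (0.331 to 0.613). Such intervals hold the error of counting alone, and they set single libraries, not genotypes, side by side.

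Alb had 0.654 RPKM in DKO 1 and 14.8 RPKM in DKO 2, against a listed 0 in WT. About 41 reads in DKO 1 and 1030 in DKO 2 lie behind these levels. Both DKO libraries were thus above the value listed for WT, although a 0 can be a failed estimate. The level of Alb in DKO 2 was 22.6 times DKO 1 (16.5 to 31.6). No ratio to WT is given, because a listed 0 has no defined fold. As a share of the summed RPKM of the 6 genes, Afp took 38.3% in DKO 2 and Alb 8.11%. In DKO 1 the shares were 7.85% for Afp and 5.76% for Alb, and in WT Afp took 25.8%.

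Ttr, the thyroxine carrier, was listed at 0 in DKO 1 and had 8.81 RPKM in DKO 2 and 0.0168 RPKM in WT. The level in WT stands for about 1 read and that in DKO 2 for about 357. DKO 2 was high, DKO 1 and WT were both at or near 0, and the groups overlap. The ratio of DKO 2 to WT was 524, with a counting interval of 90.6 to 20114 that reflects the single read.

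The lipoprotein genes Apoa1 and Apoa2 were the members with signal in all 3 libraries besides Afp. Apoa1 had 6.93 RPKM in DKO 1 and 21.3 RPKM in DKO 2, against 5.34 RPKM in WT. DKO 2 was 3.99 times WT (3.46 to 4.60) and 3.07 times DKO 1 (2.64 to 3.59), while DKO 1 was 1.30 times WT (1.08 to 1.56). Apoa1 was the most abundant of the 6 per length in DKO 1 and in WT, with 61.0% and 70.8% of their summed RPKM, and took 11.7% in DKO 2.

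Apoa2 had 2.88 RPKM in DKO 1 and 67.7 RPKM in DKO 2, against 0.237 RPKM in WT. About 46, 1200 and 6 reads lie behind these levels. Both DKO libraries were above WT, DKO 1 by 12.2 times (5.18 to 34.8) and DKO 2 by 286 times (130 to 777). DKO 2 in turn was 23.5 times DKO 1 (17.4 to 32.1). RefSeq gives Apoa2 4 coding transcripts, of which 1 is listed here.

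Ahsg was listed at 0 in all 3 libraries for each of its 3 transcripts. That value is not read as absence, since genes with several listed transcripts were mostly at 0. Of 649 genes with 3 entries, 480 had every entry at 0 in every library. The other 5 genes had a single entry each.

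**Figure D1:**
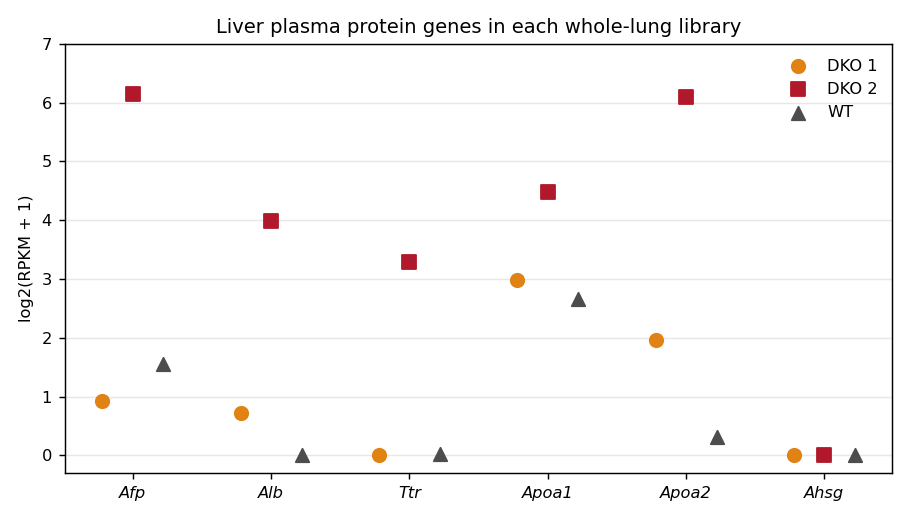
Level of each gene on the log2(RPKM + 1) scale in DKO 1 (circles), DKO 2 (squares) and WT (triangles), 1 library each. DKO 2 is the highest library for 5 of the 6 genes, and Ahsg is listed at 0 throughout.

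**Figure D2:**
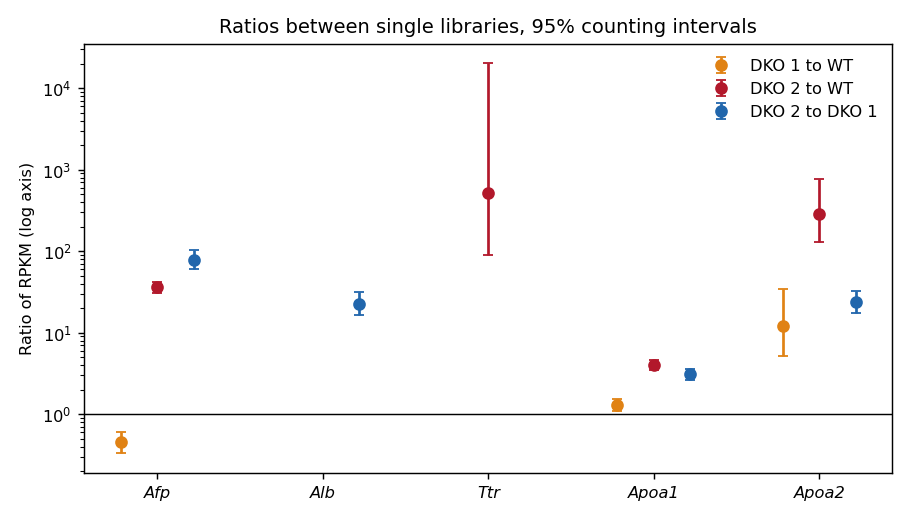
Ratios of RPKM between pairs of single libraries on a log axis, with 95% exact binomial intervals on approximate reads. Every DKO 2 ratio lies above 1, DKO 1 to WT lies below 1 for Afp, and ratios with a library at 0 are not drawn.

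The order of levels also differed between libraries. In DKO 2 it was Afp, Apoa2, Apoa1, Alb and Ttr, with Afp at place 254 and Apoa2 at place 260 among 3726 transcripts above 0. In DKO 1 the order was Apoa1, Apoa2, Afp and Alb, with Apoa1 at place 840 of 4691. In WT it was Apoa1, Afp, Apoa2 and Ttr, with Apoa1 at place 953 of 4254. The summed RPKM of the 6 genes was 11.4 in DKO 1, 183 in DKO 2 and 7.55 in WT. Afp and Apoa2 in DKO 2 differed by little, and with 1 library no spread beyond counting error can be set on their order.

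Set over both DKO libraries, no member passed the test against WT. The test was limma on log2(RPKM + 1) over the 2066 transcripts averaging 1 RPKM or more, with Benjamini-Hochberg adjustment. Of these 2 passed (0.0968%), 1 higher and 1 lower in DKO (0.0484% each). The 5 members with signal entered it, and Afp, Alb and Ttr would have missed that level with DKO 2 at 0, so counts over them are descriptive. Apoa2 had a log2 difference between DKO and WT of 3.72 (SE 1.21, adjusted p = 0.90). For Afp it was 1.97 (SE 1.45), for Ttr 1.62 (SE 1.14) and for Apoa1 1.07 (SE 0.77), each with an adjusted p of 0.999. Alb also had an adjusted p of 0.999. The size of the difference depends on the pseudocount for genes near 0 in a library. With pseudocounts of 0.1 and 5 it was 3.01 and 0.73 for Ttr, and 5.40 and 2.19 for Apoa2. Without adjustment, 2 of the 5 had a p under 0.05 in limma (Alb, 0.0470, and Apoa2, 0.00958), as did 66 of the 2066 transcripts (3.19%). The spread came from the 2 DKO libraries alone, with 1 residual degree of freedom, and the same variance was taken for WT. With DKO 1 set alone against WT, the differences were 1.65 for Apoa2, 0.73 for Alb, 0.32 for Apoa1, -0.024 for Ttr and -0.64 for Afp, with no test. Apoa2 passed limma under 4 of 11 alternatives, namely a pseudocount of 0.1 (adjusted p = 0.0303), a minimum mean of 5 RPKM (0.00666), median scaling (0.00858) and removal of erythroid genes (0.00364).

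For the 5 measured genes, the 2 DKO libraries lay further from each other than DKO 1 lay from WT. On the log2(RPKM + 1) scale, DKO 2 minus DKO 1 was 5.23 for Afp, 4.15 for Apoa2, 3.29 for Ttr, 3.26 for Alb and 1.49 for Apoa1. Among the 2066 transcripts tested, Afp had the highest such difference, Apoa2 stood at place 4, Ttr at 8, Alb at 9 and Apoa1 at 120. Over 11 alternatives Afp ranged from place 1 to 14, with 14 under voom on approximate reads, and Apoa2 from 3 to 25. Alb ranged from 6 to 26 and Apoa1 from 64 to 178, while Ttr, tested in 10 of them, ranged from 1 to 47. All 5 were at least 2-fold above WT in DKO 2, as were 15.1% of transcripts tested. In DKO 1 this held for Apoa2, against 8.03% of transcripts. DKO 2 was at least 2-fold above DKO 1 for all 5, against 13.6% of transcripts. With every entry counted and no filter, 5 of the 8 entries were at least 2-fold above WT in DKO 2, against 2.28% of 16383. In DKO 1 it was 1 of the 8, against 1.29%, and 5 of the 8 were at least 2-fold above DKO 1 in DKO 2, against 1.99%. On the log2(RPKM + 1) scale, Afp and Apoa2 were at least 16-fold above WT in DKO 2, against 0.339% of transcripts tested, and at least 16-fold above DKO 1, against 0.194%.

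By a rule of size that asks for at least 2-fold from WT in both DKO libraries and for these to be closer to each other than to WT, 0 members qualified. Apoa2 met the 2-fold part in both, as did 3.87% of transcripts tested, and missed the rule through the gap of 4.15 between the DKO libraries. The same rule took 3.19% of transcripts above WT and 1.5% below it. Alb, Apoa1 and Apoa2 were above WT in both DKO libraries, as were 32.1% of transcripts tested, and 0 members were below WT in both, against 31% of transcripts.

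**Figure D3:**
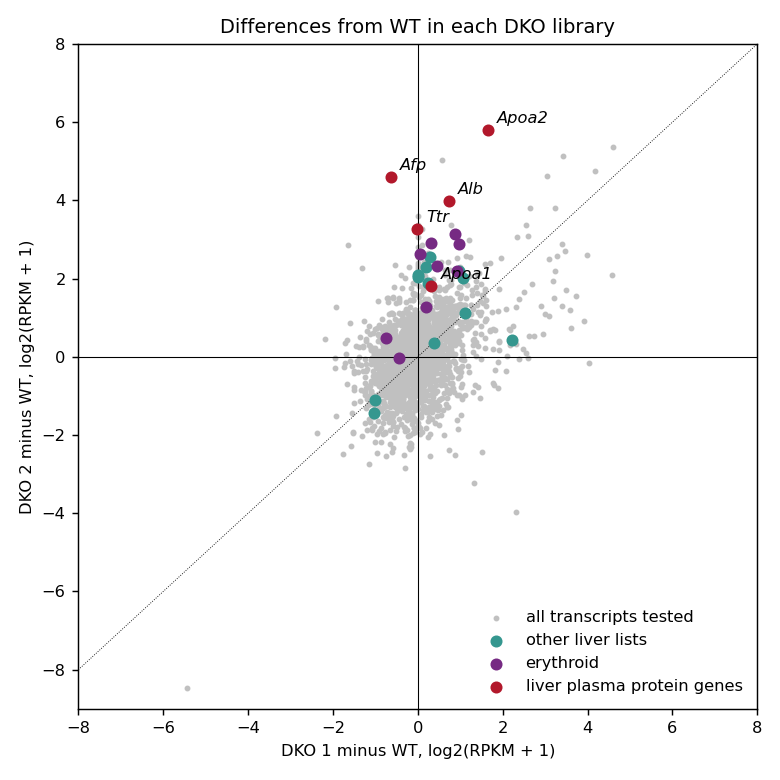
Difference from WT on the log2(RPKM + 1) scale in DKO 1 (horizontal) and DKO 2 (vertical) for 2066 transcripts, with the 5 measured liver plasma protein genes named and other liver and erythroid genes coloured. The named genes lie above the dotted line of equal differences, from 1.81 (Apoa1) to 5.80 (Apoa2) on the vertical axis.

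Other genes that the liver is known for were examined in 7 lists holding 141 genes, of which 110 had an entry, with 153 transcripts. Transcripts above 0 in a single library were counted, with no test. Of the 153, 13 (8.50%) were above 0 in DKO 2 alone, against 0.983% of all 16383 transcripts. In DKO 1 alone it was 5 (3.27%), against 3.97% of all, and in WT alone 5 (3.27%), against 1.90% of all. The 13 in DKO 2 had 0.0144 to 3.27 RPKM, with a median of 0.562. The 5 of DKO 1 reached 0.118 RPKM and the 5 of WT 1.07 RPKM.

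The 13 transcripts, named here after their values were seen, came mostly from genes of secreted proteins, as do many of the transcripts in the lists. Serpina6, which binds corticosteroids in plasma, had 3.14 RPKM in DKO 2, and Ambp, the precursor of alpha-1-microglobulin and bikunin, had 1.87. Apoh, a plasma glycoprotein that binds phospholipids, had 1.55 RPKM in DKO 2, and Apob, the structural protein of low-density lipoprotein, had 0.164. The serine protease inhibitor genes Serpinf2 (0.894), Serpina1c (0.554) and Serpina1d (0.122) and the prothrombin gene F2 (0.382) were also among them. Itih3 (0.675) and Itih2 (0.562) encode chains of inter-alpha-trypsin inhibitor, and Saa4 stood at 0.0144 RPKM. The remaining 2 encode no plasma protein. Uox, the urate oxidase of mouse hepatocytes, had 3.27 RPKM in DKO 2, and Hnf4a, a transcription factor of hepatocytes and gut epithelium, had 0.429. Serpina1c and Serpina1d have near-identical neighbours, so their reads are uncertain.

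Not all liver genes shared the pattern. In WT alone, Gc, the vitamin D-binding protein of the albumin family, had 1.07 RPKM, the mannose-binding lectin gene Mbl1 had 0.823 and the urea cycle gene Cps1 had 0.251. In DKO 1 alone, Prox1 had 0.118 RPKM and Nr1h4, the bile acid receptor, had 0.0894. Among the acute phase genes, Saa1 had 4.51 RPKM in DKO 1 and 16.4 in DKO 2, against 3.69 in WT. Saa3 had 2.15 and 14.3 RPKM in the DKO libraries, against 1.59 in WT. Saa2 went the other way, with 0.695 and 0.288 RPKM, against 2.49 in WT.

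Of the 153 liver transcripts, 12 reached the level for testing and 0 passed limma, against 0.0968% of all tested. Their median log2 difference from WT was 0.26 in DKO 1 and 1.95 in DKO 2, beside medians of -0.01 and 0.04 over all transcripts tested. In DKO 2, 8 of the 12 were at least 2-fold above WT, against 15.1% of all tested, and in DKO 1, 3 were, against 8.03%. Of the 8, 5 (Apoc2, Fah, Hhex, Serpina6 and Uox) reached the level for testing through DKO 2, so these counts and medians are descriptive. Over all 153 transcripts with no filter, 13 were at least 2-fold above WT in DKO 2, against 2.28% of 16383, and 3 in DKO 1, against 1.29%. The median of the difference averaged over both DKO libraries was 1.09 over the 12 and 0.26 over the 49 above 0 in any library. Among the apolipoproteins, Apoe, made by macrophages as well as liver, had 41.4 and 41.7 RPKM in DKO 1 and DKO 2, against 18.6 RPKM in WT. Apoc4 had 26.3 RPKM in DKO 1 and 6.83 in DKO 2, against 4.84 in WT, so DKO 1 was the high library. Apoc2, an activator of lipoprotein lipase, had 1.48 and 9.61 RPKM, against 1.16 in WT. Apoa4, the neighbour of Apoa1, had 0.0196 RPKM in DKO 1 and 2.74 RPKM in DKO 2, with 0 listed for WT.

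Of 20 hepatocyte transcription factor genes with an entry, 2 could be tested. Hhex, a homeobox gene of early liver and of endothelium, had 1.68 RPKM in DKO 1 and 5.23 in DKO 2, against 0.371 in WT. Foxa1, shared by lung and liver endoderm, had 0.798 and 0.688 RPKM, against 2.64 in WT. Foxa3, a relative of it in liver, had 0.719 and 0.172 RPKM, against 0.141 in WT. Among 20 hepatocyte enzyme and transporter genes with an entry, Fah of tyrosine breakdown had 1.73 and 4.28 RPKM in the DKO libraries, against 0.311 in WT. Asgr2, a subunit of the asialoglycoprotein receptor, was listed at 0 in DKO 1 and had 0.639 RPKM in DKO 2 and 0.165 in WT. In the coagulation list, Pros1 had 3.19 and 3.11 RPKM, against 2.20 in WT, and Serpind1, heparin cofactor II, had 0.0149 and 1.38 RPKM, with 0 listed for WT. No gene of the liver complement list reached the level for testing, and C3 had 0.0826 RPKM in DKO 1, 1.20 in DKO 2 and 0.0320 in WT. The complement regulator Cfi had 1.26 and 1.13 RPKM in DKO 1 and DKO 2, against 0.545 in WT.

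**Figure D4:**
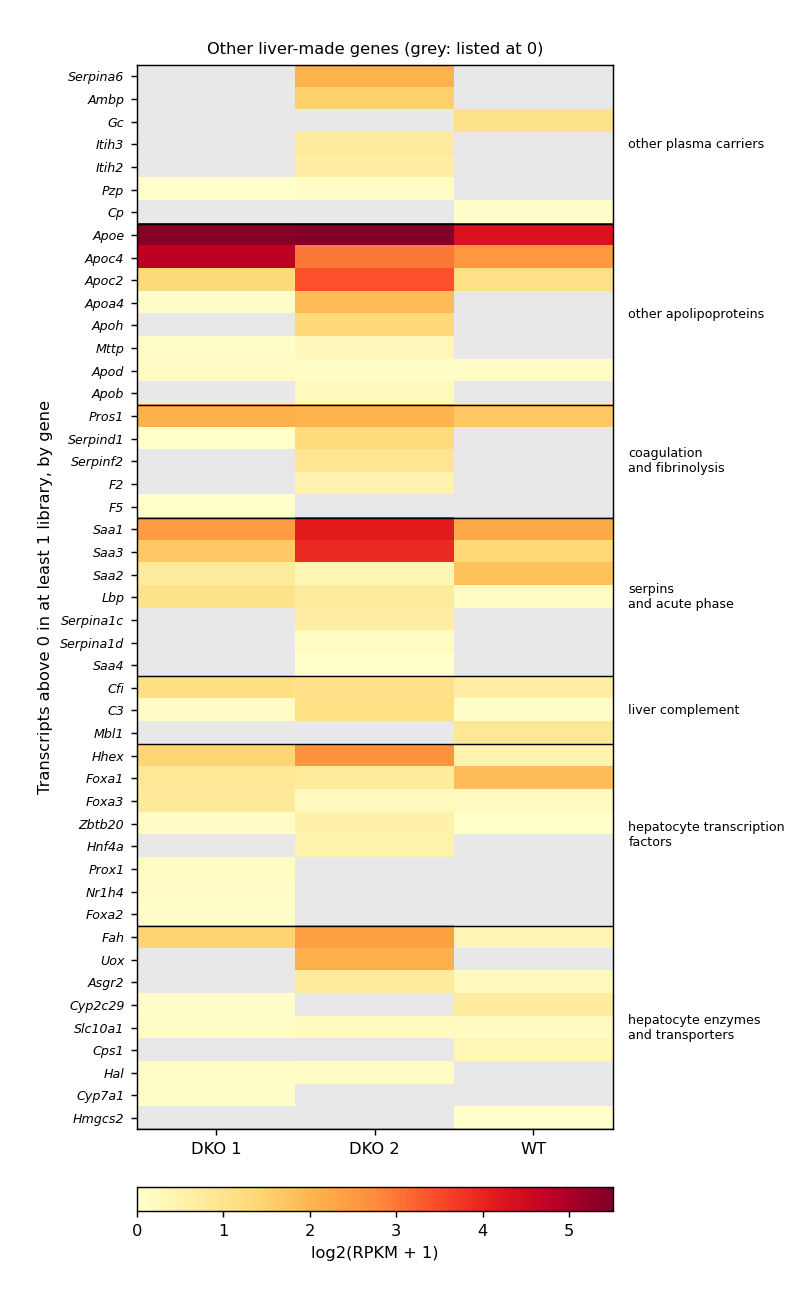
Level on the log2(RPKM + 1) scale of 47 of the 49 transcripts of 7 liver gene lists that were above 0 in at least 1 library (the other 2 are not reported here), with DKO 1, DKO 2 and WT as columns and grey for listed at 0. Of these, 13 are coloured in DKO 2 alone.

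Among receptors and partners of plasma proteins, 0 of the 3 tested passed limma, against 0.0968% of all. Fcgrt, the receptor that recycles albumin and immunoglobulin G, had 28.1 RPKM in DKO 1 and 13.6 in DKO 2, against 8.01 in WT. Lpl, lipoprotein lipase, had 6.04 and 4.24 RPKM, against 4.28 in WT.

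Other tissues make some of these proteins, and their markers were read beside them. In the intestinal list, 7 of 9 transcripts were listed at 0 in every library. The other 2, Fabp2 and Guca2a, were above 0 in DKO 1 alone, at 0.507 and 0.582 RPKM. The choroid plexus list summed to 0.937 RPKM in DKO 1, 0.904 in DKO 2 and 0.466 in WT, with 16 of 19 transcripts at 0 throughout, and most of each sum was the water channel gene Aqp1. In the yolk sac list, Spink1, a trypsin inhibitor also made by pancreas and gut, had 9.35 RPKM in DKO 2, with 0 listed for DKO 1 and WT. Rhox5, a homeobox gene, had 20.7 and 27.2 RPKM in DKO 1 and DKO 2, against 46.3 in WT. Hnf4a, given above, is also in this list, of which 14 of 22 transcripts were at 0 throughout.

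The DKO 2 library also stood apart for some red blood cell and heart genes. The erythroid list summed to 28727 RPKM in DKO 1 and 102805 in DKO 2, against 20219 in WT, with 15 of 32 transcripts at 0 throughout. Hbb-y, an embryonic globin, had 25259 and 91331 RPKM, against 18354 in WT, and Hbb-bh1, another, had 2195 and 5338 RPKM, against 1158 in WT. In DKO 2, 7 of 9 tested erythroid transcripts were at least 2-fold above WT, against 15.1% of all tested, and in DKO 1, 0 were, against 8.03%. Of the 9, 2 reached the level for testing through DKO 2. With no filter, 8 of 32 were at least 2-fold above WT in DKO 2, against 2.28% of all. Of the 32, 53.1% were above 0 in DKO 1, 40.6% in DKO 2 and 50% in WT, against 28.6%, 22.7% and 26% of all. Epor had 0.339 RPKM in DKO 1 and 0.292 in WT, with 0 listed for DKO 2. Epb42 had 0.836 and 0.303 RPKM in DKO 1 and DKO 2, against 0.148 in WT. Tfrc had 3.75 and 5.29 RPKM, against 5.42 in WT. The heart list summed to 19.4 RPKM in DKO 1 and 111 in DKO 2, against 28.9 in WT, with 12 of 17 transcripts at 0 throughout. Of its 4 tested transcripts, 1 reached the level for testing through DKO 2. Myl4, an atrial myosin light chain, had 11.4 and 56.1 RPKM, against 19.1 in WT, and Tnni3, cardiac troponin I, had 5.78 and 28.7 RPKM, against 7.78 in WT. The macrophage list was highest in DKO 1, at 271 RPKM, against 62.0 in DKO 2 and 38.3 in WT, with 1 of 11 transcripts at 0 throughout. Most of it was Tyrobp, an adaptor of myeloid receptors, at 218.9 and 52.3 RPKM in DKO 1 and DKO 2, against 24.9 in WT. C1qc had 25.1 and 0.111 RPKM, against 9.43 in WT, and C1qb 19.4 and 4.90 RPKM, against 0.812 in WT. The part of these cell types in the levels of the plasma protein genes was not tested. With erythroid genes removed and the libraries rescaled, DKO 2 minus DKO 1 was 5.16 for Afp and 4.08 for Apoa2, against 5.23 and 4.15 before. This rescaling divides every remaining gene of a library by the same factor, so it cannot show the part of red blood cells. In bulk tissue, more cells of a type and more RNA per cell cannot be told apart.

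**Figure D5:**
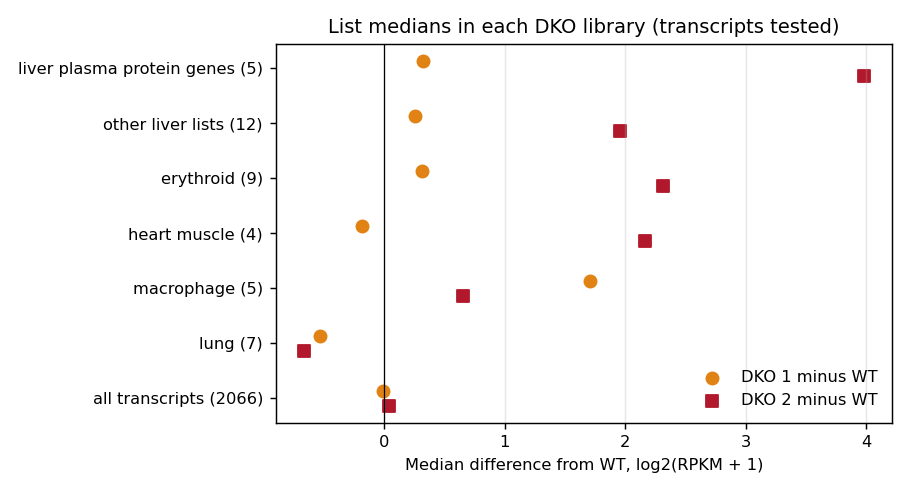
Median difference from WT on the log2(RPKM + 1) scale in DKO 1 (circles) and DKO 2 (squares) for gene lists, with the number of transcripts tested in brackets. The liver, erythroid and heart lists lie between 1.95 and 3.98 in DKO 2 and between -0.19 and 0.32 in DKO 1, while all transcripts lie near 0. Of the plasma protein transcripts, 3 of 5 reached the level for testing through DKO 2, and of the other liver transcripts 5 of 12. The same held for 2 of 9 erythroid and 1 of 4 heart transcripts, so these medians are descriptive.

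Some lung genes had signal in all 3 libraries, with Foxf1 of lung mesenchyme at 12.4 RPKM in DKO 1, 8.90 in DKO 2 and 9.15 in WT, and Epcam of epithelium at 6.75, 10.6 and 17.4 RPKM in the same order. Of 22 lung list transcripts, 12 were at 0 throughout, among them both entries of Nkx2-1, the gene that drives the recombinase, and those of Sftpb and Scgb1a1. The lung list summed to 37.9 and 29.5 RPKM in the DKO libraries, against 405 in WT, of which Sftpc, a surfactant gene that fell in the DKO libraries (limma adjusted p = 0.0199), was 369. Lin28a had no entry under its name. Lin28b had 0.187 RPKM in DKO 1 and 0.590 in DKO 2, against 0.449 in WT, so the library labelled DKO 2 was not lower than WT. This RPKM spans the whole transcript in all cells of the lung and checks the labels only weakly. Of 4 Y-linked genes, all 4 were above 0 in DKO 1 and in DKO 2 and none was in WT, so sex and genotype cannot be told apart.

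The patterns nearest to that of the plasma protein genes came from several tissues. Likeness was the distance, over the 3 libraries, between a transcript's log2 differences from WT in the 2 DKO libraries and the median of the 5 members. Lcn2, a secreted lipocalin of neutrophils and of inflamed epithelium and liver, was nearest (distance 0.50), with 11.1 RPKM in DKO 2 and 0 listed for DKO 1 and WT. Spink1 followed at 0.69, then Erv3 at 0.75 and the chemokine gene Ccl6 at 0.76, which had 1.93 and 16.7 RPKM in the DKO libraries, against 0.701 in WT. The others were the muscle genes Tnnc2 and Actc1, the erythroid genes Hba-x and Klf1, the blood regulator Lyl1 and the calcium-binding gene S100g, at 0.98 to 1.15. Klf1 had 0.340 RPKM in DKO 1 and 7.18 in DKO 2, against 0.0803 in WT. S100g had 0.815 and 39.0 RPKM, against 0.214 in WT. None of the 10 passed limma, as 0.0968% of transcripts did. Apart from Hba-x and Actc1, the 10 would have missed the level for testing with DKO 2 at 0. The filter thus favours patterns high in DKO 2, and the likeness is descriptive.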

How the data were processed

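Total RNA of whole lung was extracted with Trizol and made into libraries with the SMARTer Ultra Low Input kit, per the labels' protocols. Cutadapt, TopHat2, HTSeq and edgeR with build mm10 are named, per the submitters' processing notes, without versions, order or annotation. The authors deposited RPKM for 16383 RefSeq transcripts in 3 libraries. A share of 68.0% was listed at 0 in every library, from 47.7% for genes with 1 RefSeq transcript to 90.9% for those with 6 or more, so a 0 can be a failed estimate. A value above 0 can be one too. Of the entries of Gapdh, a gene active in most cells, 1 was listed at 0 throughout. The other had 0.115 RPKM in DKO 1, 0.185 in DKO 2 and 0.0144 in WT.

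The RefSeq gene table (GRCm38.p6) named 16151 transcripts and GENCODE a further 77. RPKM times annotated length in kilobases gave the worth of 1 read, found from the spacing of low values, at 0.0326 in DKO 1, 0.0292 in DKO 2 and 0.0206 in WT. Within 0.05 of a whole read lay 45.9%, 44.2% and 42.1% of values under 100 reads, so reads are approximate and served for intervals (scipy 1.17.1) and 1 alternative. Without molecular identifiers, PCR copies count as separate reads.

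Groups followed the genotype labels. Limma 3.58.1 in R 4.3.3 (mean-variance trend, two-sided, prior of 11.2 degrees of freedom, adjusted p under 0.05) was run on log2(RPKM + 1), which understates changes of low genes, and was tested on simulated data. The members, lists and tests were chosen with earlier results of these data known. Genes were named by rule, namely all members, the 3 most abundant of each list, list genes past the limma threshold and the 10 nearest patterns. Others were chosen after their values were seen. Some genes of the lists are not reported here. The alternatives tried were a pseudocount of 0.1 or 5, a minimum of 5 RPKM or none, median, quantile and TPM scaling (over these transcripts only), removal of erythroid genes, 2 other moderations, voom on approximate reads, a 1.5-fold rule and leaving out each DKO library.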

Additional observations from a re-analysis of the deposited data

How the results depend on the processing

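The liver plasma protein genes kept their higher level in DKO 2 than in DKO 1 under all 11 alternatives (10 for Ttr). Changes of the filter or of the moderation leave the values as they are, so this difference could not move under them. Over the 11, log2 differences were 3.67 to 6.29 for Afp, 3.21 to 4.53 for Apoa2 and 1.14 to 1.62 for Apoa1. For Alb they were 1.81 to 4.48 and for Ttr 1.47 to 9.32. For Afp and Ttr the difference from WT rests on DKO 2. Without that library it was -0.64 for Afp and -0.024 for Ttr, the reverse of 1.97 and 1.62 with both, and without DKO 1 it was 4.59 and 3.27. Apoa2, Alb and Apoa1 stayed above WT without DKO 2, at 1.65, 0.73 and 0.32, against 3.72, 2.35 and 1.07 with both. Leaving out 1 DKO library gives no test, and the members at least 2-fold from WT then numbered 1 to 5, and all transcripts 280 to 555. The size rule with both libraries took 0 and 97, but its closeness condition cannot apply to 1 library. Without that condition, 1 member and 80 transcripts were at least 2-fold above WT in both, and 0 and 33 below. Afp, Alb, Apoa1 and Ttr passed limma under no alternative, with lowest adjusted p values of 0.662, 0.390, 0.922 and 0.922. Apoa2 ranged from 0.00364 upward to 0.9999, with differences of 5.40 (pseudocount of 0.1), 3.72 (minimum of 5 RPKM), 3.69 (median scaling) and 3.69 (no erythroid genes) where it passed. Those 4 settings called 13, 10, 14 and 14 transcripts and 1 member each, against 2 and 0 in the main limma test. A pseudocount of 5 called 1. No filter, quantile normalization, TPM and voom called 0, with 260, 40, 54 and 45 at an unadjusted p under 0.05. The size rule took 275 transcripts at 1.5-fold, 166 and 34 with pseudocounts of 0.1 and 5, 50 with a minimum of 5 RPKM, 203 with TPM and 180 with voom, which also took 1 member (Alb). The macrophage median was 2.10 and 0.41 with pseudocounts of 0.1 and 5, 2.06 with a minimum of 5 RPKM 2.09 with voom and 0.49 with no filter, against 1.18. Over the 11 alternatives the median ran from 0.26 (no filter) to 1.61 for the other liver lists, against 1.09, and from 0.54 to 1.28 for heart genes, against 0.99. For erythroid genes, over 10, it ran from 0.55 (no filter) to 1.56, against 1.39. Without 1 DKO library, medians ran from 0.26 to 1.95 for the other liver lists, 0.31 to 2.31 for erythroid, -0.19 to 2.16 for heart and 0.66 to 1.71 for macrophage genes. The cause of these changes was not tested. No paired analysis was possible because there is 1 WT library. The counting intervals of DKO 2 exclude a ratio of 1 to both other libraries for Afp, Apoa1 and Apoa2, to DKO 1 for Alb and to WT for Ttr. They hold counting error on approximate reads of single libraries alone. With 3 libraries, 1 of them WT, what limited these comparisons was not tested.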
